A study of Homo sapiens with 9 samples.

Results

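Transforming growth factor beta (TGF-beta) signalling was followed through 10 genes in the human fibrosarcoma line HT1080: the ligands TGFB1, TGFB2 and INHBA, the latent TGF-beta binding proteins LTBP1, LTBP2 and LTBP3, the receptors TGFBR1 and TGFBR2, the signal transducer SMAD3 and the inhibitory SMAD7. They were measured by 15 probe sets, out of 17466 probe sets and 9453 genes with values in the deposited expression array table. A probe set belonged to a gene when the platform annotation gave that gene as its symbol and the table held values for it. LTBP3 and INHBA were chosen by their measured values, a higher level in earlier results of the same arrays, so their values are given as a description with no test, and the other 8 genes were taken in for their place in the pathway.

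The study asked what the methionine salvage enzyme methylthioadenosine phosphorylase (MTAP) does to gene expression, and it had 3 groups of 3 arrays, called biological replicates in the design text. MTAP+ inhibitor cells carried the enzyme and had received MT-DADMe-ImmA, a transition-state analogue that blocks MTAP, at 10 µM for 48 hours before harvest. MTAP+ cells carried the enzyme and had no inhibitor, and MTAP- cells lacked the enzyme and had no inhibitor. The labels do not say how the MTAP+ cells were made or whether they were 1 clone, so the enzyme cannot be told apart from other differences between the MTAP+ and MTAP- cells. All cells grew in DMEM to 80% confluency. The arrays measured RNA of whole cultures, in which fewer cells with a transcript and less of it per cell cannot be told apart.

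TGF-beta is secreted in a latent form: the cleaved propeptide stays wrapped around the growth factor and is joined by a disulfide bond to an LTBP, which anchors the complex in fibrillin and fibronectin matrix. Integrins and other activators free the ligand, which binds TGFBR2. TGFBR2 then recruits and phosphorylates TGFBR1, which phosphorylates SMAD2 and SMAD3, and these enter the nucleus with SMAD4. SMAD7 is a target of the pathway that blocks the activated receptor. INHBA encodes the subunit of activin A, which signals through the same SMAD2 and SMAD3 from activin receptors. Fibroblast-like cells are known to respond to TGF-beta by making matrix.

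The start regions of the genes on which the results turn are printed here because these genes were higher in MTAP+ than in MTAP- cells, or, for INHBA, were higher again with the inhibitor. Sequences are from RefSeq, build GRCh38.p14, 250 bases before to 50 after an annotated start, 5′ to 3′ on the strand of the gene. All 10 genes had at least 1 such window, 27 windows in all. Capitals mark 4 motifs on either strand: CAGAC, the short SMAD-binding element, GTCTAGAC, its palindromic form, TGACGTCA, the cyclic AMP response element, and TGAGTCA, the AP-1 element. CAGAC appears as GTCTG on the other strand, and the motifs do not overlap one another in the windows shown.

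TGFBR2, chr3:30606351-30606650, plus strand: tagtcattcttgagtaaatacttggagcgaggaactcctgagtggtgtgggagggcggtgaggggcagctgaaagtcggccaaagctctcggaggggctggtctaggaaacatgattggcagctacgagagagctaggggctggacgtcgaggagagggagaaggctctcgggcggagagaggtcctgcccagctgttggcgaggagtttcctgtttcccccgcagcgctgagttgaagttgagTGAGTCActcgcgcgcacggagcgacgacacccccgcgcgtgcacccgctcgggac

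LTBP1, chr2:32946703-32947002, plus strand: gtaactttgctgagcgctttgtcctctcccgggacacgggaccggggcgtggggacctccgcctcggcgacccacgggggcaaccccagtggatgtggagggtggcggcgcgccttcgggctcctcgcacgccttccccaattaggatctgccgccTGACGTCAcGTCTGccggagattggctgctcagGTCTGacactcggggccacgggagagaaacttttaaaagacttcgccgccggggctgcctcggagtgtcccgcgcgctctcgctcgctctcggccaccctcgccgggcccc

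TGFB2, chr1:218345086-218345385, plus strand: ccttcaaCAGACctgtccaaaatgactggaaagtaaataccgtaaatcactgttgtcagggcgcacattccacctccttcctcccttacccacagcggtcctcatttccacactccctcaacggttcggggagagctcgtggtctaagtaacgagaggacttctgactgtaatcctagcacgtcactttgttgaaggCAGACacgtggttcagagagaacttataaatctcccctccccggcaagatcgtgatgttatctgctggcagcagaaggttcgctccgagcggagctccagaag

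SMAD3, chr15:67065352-67065651, plus strand: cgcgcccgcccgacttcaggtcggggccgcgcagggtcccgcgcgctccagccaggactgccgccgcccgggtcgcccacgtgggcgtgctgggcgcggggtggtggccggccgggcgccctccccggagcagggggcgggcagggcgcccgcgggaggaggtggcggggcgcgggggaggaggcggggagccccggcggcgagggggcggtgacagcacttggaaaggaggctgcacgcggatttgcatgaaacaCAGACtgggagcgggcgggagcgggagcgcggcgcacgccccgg

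LTBP3, chr11:65558179-65558478, minus strand: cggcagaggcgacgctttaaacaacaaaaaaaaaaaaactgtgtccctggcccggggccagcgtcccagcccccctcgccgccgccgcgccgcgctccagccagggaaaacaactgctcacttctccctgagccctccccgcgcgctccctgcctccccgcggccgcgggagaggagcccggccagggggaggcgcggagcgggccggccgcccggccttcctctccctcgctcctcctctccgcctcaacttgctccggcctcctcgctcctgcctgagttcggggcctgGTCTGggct

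INHBA, chr7:41703041-41703340, minus strand: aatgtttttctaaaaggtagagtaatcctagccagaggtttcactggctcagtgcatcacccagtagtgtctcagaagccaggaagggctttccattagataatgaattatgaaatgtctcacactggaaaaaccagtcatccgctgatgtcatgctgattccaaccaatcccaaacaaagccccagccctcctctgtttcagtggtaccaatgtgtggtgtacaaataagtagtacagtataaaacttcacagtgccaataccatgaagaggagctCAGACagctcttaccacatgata

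Where a gene had several windows, the one printed holds a motif. CAGAC was found in 16 of the 27 windows (59.3%), against 45.3% of the 35116 windows of all genes. TGFB1 and TGFBR2 had no window with it. TGFBR1 had 8 of the 27 windows and SMAD3 had 5, and windows of 1 gene can overlap. The same match can thus be counted more than once, and no share by gene was computed. GTCTAGAC was found in 0 of the 27 windows and in 0.202% of all windows. TGACGTCA was found once, in the LTBP1 window above at -94 from the start, and in 1.85% of all windows. TGAGTCA was found in the TGFBR2 window above at -6 and in another SMAD3 window at -56, and in 4.95% of all windows. These matches describe letters in the windows only.

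The 2 MTAP probe sets checked the labels. On 211363_s_at the MTAP+ inhibitor arrays had 11.21, 11.30 and 11.10 and the MTAP+ arrays 11.63, 11.74 and 11.37 on the log2 scale, against 4.41, 4.25 and 5.02 on the MTAP- arrays, and 216685_s_at separated the groups in the same way. Values are the deposited log2 array levels, and every probe set with values reached 6.64, the log2 of 100, on at least 3 arrays. Levels of different probe sets are not comparable with each other, and a fold against a group whose mean is below 6.64 is given as a lower bound counted from 6.64. Array medians ran from 8.245 to 8.378, and arrays correlated at 0.956 to 0.988 within groups and 0.924 to 0.981 between groups. Of the mesenchymal markers, 5 of 10 had values, with VIM, the intermediate filament vimentin, at 13.82 to 14.07 and SPARC, a matrix glycoprotein, at 12.36 to 13.10. LGALS1 had 13.16 to 13.69, COL6A1 9.18 to 10.13 and COL6A2 6.31 to 9.02. None of 5 epithelial, 5 blood and 4 endothelial markers had values in the table used here. Of 5 neural or melanocyte markers 2 had values, SNAP25 at 6.12 to 8.02 and TUBB3 at 12.17 to 12.97.

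The third MTAP- array stood apart in its RNA quality control. The actin control probes compare the 5′ and the 3′ end of the ACTB transcript, and a lower 5′ minus 3′ difference is usual for shorter RNA or cDNA. This difference was -1.93, -0.88 and -2.09 on the MTAP+ inhibitor arrays and -1.33, -1.03 and -1.92 on the MTAP+ arrays, against -1.81, -2.17 and -3.52 on the MTAP- arrays. On the third MTAP- array 357 probe sets (2.04%) lay more than 1 log2 unit below the mean of the other MTAP- arrays, against 5 probe sets (0.0286%) on each of those. On the MTAP+ inhibitor arrays these counts were 17, 141 and 0 and on the MTAP+ arrays 233, 151 and 59, and the second MTAP+ array also had 365 probe sets more than 1 unit above the mean of its mates, so single arrays stood apart in those groups too. Among the genes described here, the level on that array minus that mean was -2.39 for LTBP3 219922_s_at, -1.5 for SMAD3 205397_x_at and -1.2 for TGFB1. The main counts in the comparisons with MTAP- cells are therefore given also without that array and with the ACTB difference as a covariate. The same is done for each named gene whose call either of them ended. The part of RNA quality in those differences was not tested beyond these values.

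TGFBR2, LTBP1, TGFB2 and SMAD3 were higher in MTAP+ than in MTAP- cells, and the inhibitor returned none of TGFBR2, LTBP1 and TGFB2 to the level of MTAP- cells. SMAD3 differed by probe set. With the inhibitor, 218284_at stayed 0.69 above MTAP- cells and 205398_s_at fell, while 205397_x_at passed in neither comparison of inhibitor cells. With MTAP+ set against MTAP- cells, 6 of the 12 tested probe sets, of 4 of the 8 tested genes, rose and 0 fell (limma, Benjamini-Hochberg adjusted over all 17466 probe sets, threshold 0.05). Over all probe sets 14.8% were called in this comparison, 10.0% higher and 4.78% lower. Centring each array on its median moved the split of those calls, from 1751 higher and 835 lower as deposited to 1281 higher and 1276 lower, and left the count of 6 rises and 0 falls as it was. The median change of the 12 probe sets was 0.64, against 0.04 over all probe sets. In 7 of the 12 the groups did not overlap, against 33.7% of all probe sets. Without the third MTAP- array 5 of the 12 rose and 0 fell, against 8.35% of all probe sets called, and with the ACTB covariate 4 rose and 0 fell, against 4.87% of all probe sets.

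With MTAP+ inhibitor set against MTAP+ cells, 0 of the 12 probe sets rose and 1 fell, a probe set of SMAD3, against 10.3% of all probe sets called, 4.86% higher and 5.48% lower. With the replicate number as a block, 2726 probe sets were called in place of 1805, and among the 12 the count was again 0 rises and 1 fall. In 3 of the 12 the groups did not overlap, against 33.2% of all probe sets, and the median change was 0.04 against -0.02. Of these 3, LTBP1 202729_s_at was higher with the inhibitor, and SMAD3 205398_s_at and SMAD7 were lower. SMAD7 was in the table only through the MTAP+ group. With MTAP+ inhibitor set against MTAP- cells, 5 of the 12 rose and 0 fell, against 30.7% of all probe sets called, 17.4% higher and 13.3% lower. In 9 of the 12 the groups did not overlap, against 50.6%, and the median change was 0.67 against 0.03. Of these 9, TGFBR1 and SMAD7 were lower in MTAP+ inhibitor cells and the others higher. Without the third MTAP- array 5 of the 12 rose and 1 fell in this comparison, against 23.9% of all probe sets called. The fall was SMAD7, whose own differences are described with no test. With the ACTB covariate 5 rose and 0 fell, against 21.9%. Comparisons that share a group of arrays are not independent of each other.

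**Figure D1:**
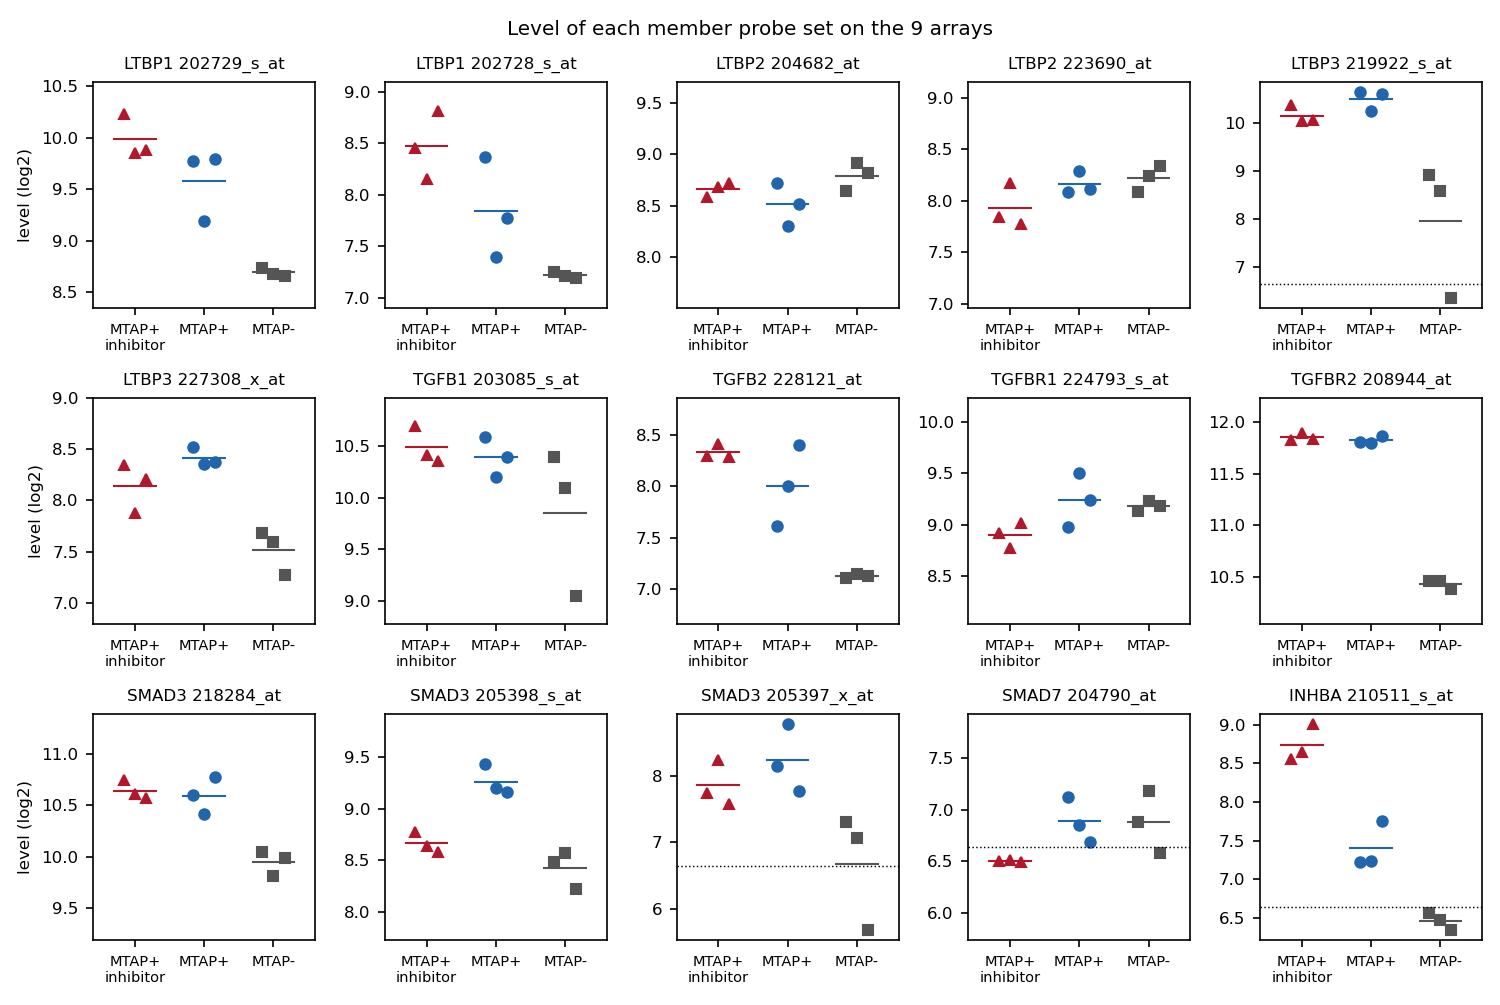
Log2 level of each of the 15 probe sets (y axis, own range in each panel) on each of the 9 arrays, with MTAP+ inhibitor (red triangles), MTAP+ (blue circles) and MTAP- (grey squares) from left to right, replicates 1 to 3 from left to right within a group, the group mean as a line and the log2 level of 100 (6.64) dotted where it is in range. TGFBR2 lies at 11.83 to 11.90, 11.80 to 11.87 and 10.38 to 10.46 in the 3 groups in that order, and INHBA differs between all of them.

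Of the ligands, TGFB2 rose in MTAP+ cells. TGFB2 (chromosome 1, 218345336 to 218444619, probe set 228121_at) had 8.29, 8.41 and 8.28 in MTAP+ inhibitor cells and 7.61, 8.0 and 8.40 in MTAP+ cells, against 7.11, 7.15 and 7.13 in MTAP- cells. Every array with the enzyme lay above every array without it, while the MTAP+ arrays spread the most. TGFB2 rose 1.83-fold in MTAP+ cells over MTAP- cells (0.87 ± 0.17, log2 ± SE, adjusted p = 0.0102) and 2.29-fold in MTAP+ inhibitor cells over MTAP- cells (1.19 ± 0.17, adjusted p = 0.00107). With the ACTB covariate the first of these was 0.92 with adjusted p = 0.0533, in a range of 0.00294 to 0.0533 over the 18 alternatives. Between MTAP+ inhibitor and MTAP+ cells the TGFB2 difference was 0.32 ± 0.17 (adjusted p = 0.26), and it passed without the third MTAP+ array, which held the highest MTAP+ value (0.52, adjusted p = 0.0454, in a range of 0.0454 to 0.62).

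TGFB1, the most widely expressed ligand of the family (chromosome 19, 41330323 to 41353922, 203085_s_at), had 10.70, 10.42 and 10.36 in MTAP+ inhibitor cells and 10.59, 10.20 and 10.40 in MTAP+ cells, against 10.40, 10.10 and 9.05 in MTAP- cells. The first MTAP- array lay among the MTAP+ arrays, the second just below them and the third far below. TGFB1 differed by 0.55 ± 0.30 between MTAP+ and MTAP- cells (adjusted p = 0.235), and by 0.15 without that array (adjusted p = 0.622, in a range of 0.0929 to 0.875 over the alternatives). Its MTAP+ inhibitor and MTAP- cells differed by 0.64 ± 0.30 (adjusted p = 0.128), and the difference passed only without the first MTAP- array (0.92, adjusted p = 0.045, in a range of 0.045 to 0.502) and was 0.24 without the third. The TGFB1 difference between MTAP+ inhibitor and MTAP+ cells was 0.09 ± 0.30 (adjusted p = 0.875).

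INHBA (chromosome 7, 41685114 to 41705406, 210511_s_at) was higher in MTAP+ inhibitor cells than in MTAP+ cells and higher in both than in MTAP- cells, and it was picked for such differences. Its levels were 8.55, 8.65 and 9.01 in MTAP+ inhibitor cells and 7.23, 7.24 and 7.75 in MTAP+ cells, against 6.57, 6.48 and 6.35 in MTAP- cells. The groups did not overlap in any of the 3 comparisons, and all 3 MTAP- arrays lay below 6.64. INHBA was 2.52-fold higher in MTAP+ inhibitor than in MTAP+ cells (1.33 ± 0.17). Against MTAP- cells it was at least 1.70-fold higher in MTAP+ cells and at least 4.27-fold higher in MTAP+ inhibitor cells, with array differences of 0.94 ± 0.17 and 2.27 ± 0.17. Without the third MTAP- array these differences were 0.88 and 2.21, and with the ACTB covariate 1.01 and 2.33. The genes whose probe sets followed INHBA most closely over the 9 arrays, by Pearson correlation and with no test, were TRAPPC6A (r = 0.990), LINC00173 (0.988) and PRKCH, a protein kinase C (0.988). TRAPPC6A averaged 8.09 in MTAP+ inhibitor cells, 7.29 in MTAP+ cells and 6.57 in MTAP- cells. The 9 arrays share 3 groups, so such a correlation follows the group means.

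**Figure D2:**
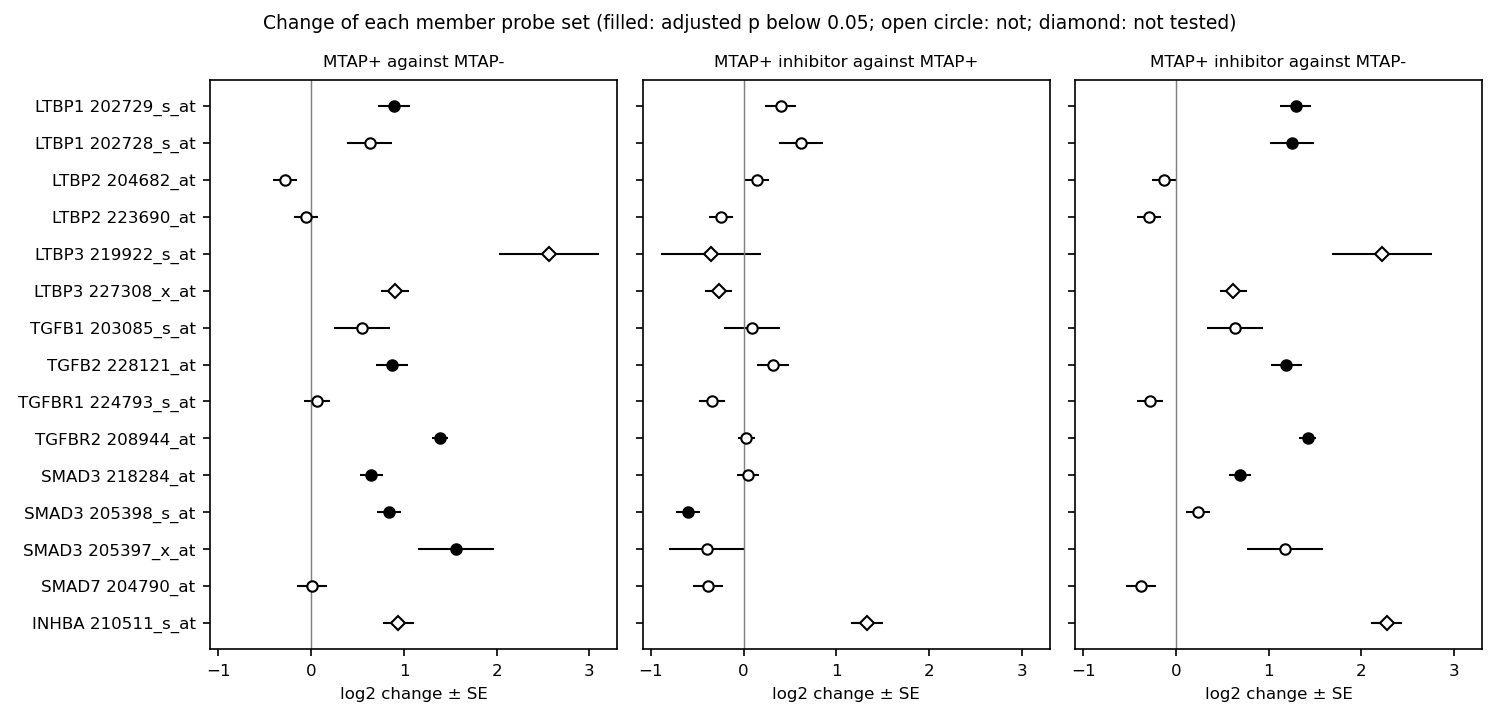
Log2 change with its standard error (x axis) of each of the 15 probe sets in the 3 comparisons; filled circles passed an adjusted p of 0.05 in limma, open circles did not, and diamonds are LTBP3 and INHBA, which were not tested. In the middle panel 1 of 12 tested probe sets passed, SMAD3 205398_s_at at -0.60, and INHBA lies at 1.33. SMAD7 is among the open circles, and its own differences are described with no test.

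LTBP1 and LTBP3 were higher in MTAP+ than in MTAP- cells, whereas LTBP2 passed in no comparison. LTBP1 (chromosome 2, 32946953 to 33399509) binds the latent TGF-beta complex and carries it to the matrix. Its probe set 202729_s_at had 10.23, 9.85 and 9.88 in MTAP+ inhibitor cells and 9.77, 9.19 and 9.79 in MTAP+ cells, against 8.73, 8.68 and 8.66 in MTAP- cells. The MTAP- arrays lay within 0.07 of each other and below all others, and the inhibitor arrays lay above all MTAP+ arrays. LTBP1 202729_s_at rose 1.85-fold in MTAP+ cells over MTAP- cells (0.89 ± 0.17, adjusted p = 0.00922) and 2.45-fold in MTAP+ inhibitor cells over MTAP- cells (1.29 ± 0.17, adjusted p = 0.000709). Both passed in all 18 alternatives. Inhibitor and MTAP+ arrays differed by 0.40 ± 0.17 (adjusted p = 0.168).

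The other LTBP1 probe set, 202728_s_at, had 8.45, 8.15 and 8.81 in MTAP+ inhibitor cells and 8.37, 7.40 and 7.77 in MTAP+ cells, against 7.25, 7.21 and 7.19 in MTAP- cells. Its MTAP- arrays were again the lowest, and its second MTAP+ array lay close to them. It rose 2.38-fold in MTAP+ inhibitor cells over MTAP- cells (1.25 ± 0.24, adjusted p = 0.00396). Between MTAP+ and MTAP- cells it differed by 0.63 ± 0.24 (adjusted p = 0.103), and without the second MTAP+ array it passed (0.86, adjusted p = 0.0314, in a range of 0.0314 to 0.252). Between MTAP+ inhibitor and MTAP+ cells it differed by 0.62 ± 0.24 (adjusted p = 0.125), and without the first MTAP+ array it passed (0.89, adjusted p = 0.0382, in a range of 0.0382 to 0.372).

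LTBP3 (chromosome 11, 65538559 to 65558359), which also binds latent TGF-beta, was picked for its values. Its probe set 219922_s_at had 10.38, 10.04 and 10.07 in MTAP+ inhibitor cells and 10.66, 10.26 and 10.61 in MTAP+ cells, against 8.91, 8.58 and 6.35 in MTAP- cells. All MTAP- arrays lay below all others, and the third was far below its mates: 0.0802% of all probe sets were as low on that array. The difference was 2.56 ± 0.54 between MTAP+ and MTAP- cells (5.91-fold), and 1.76 without the third MTAP- array or 1.73 with the ACTB covariate. For MTAP+ inhibitor against MTAP- cells it was 2.22 ± 0.54 (4.65-fold), and 1.42 without that array or 1.55 with the covariate. The probe set 227308_x_at gave smaller differences, with 8.34, 7.88 and 8.21 in MTAP+ inhibitor cells and 8.52, 8.35 and 8.37 in MTAP+ cells, against 7.68, 7.6 and 7.28 in MTAP- cells. It differed by 0.90 ± 0.15 between MTAP+ and MTAP- cells (1.86-fold) and by 0.62 ± 0.15 between MTAP+ inhibitor and MTAP- cells (1.54-fold). On both LTBP3 probe sets the inhibitor arrays averaged below the MTAP+ arrays, by -0.35 ± 0.54 and -0.27 ± 0.15.

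The genes most like LTBP3 219922_s_at over the 9 arrays were NELFB, a subunit of the negative elongation factor (r = 0.978), DNAJC4, a J-domain protein (0.976), and RRAS, a small GTPase (0.975), with no test. DNAJC4 had 7.10, 7.27 and 5.78 on the 3 MTAP- arrays and RRAS had 9.69, 9.62 and 8.77. The third MTAP- array was the lowest of its group for these genes. They were chosen for following LTBP3 over the same arrays, its low value on that array included.

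LTBP2 (chromosome 14, 74498183 to 74612237) sits on elastic microfibrils and, unlike LTBP1 and LTBP3, does not bind latent TGF-beta. Its probe set 204682_at had 8.58, 8.68 and 8.72 in MTAP+ inhibitor cells and 8.72, 8.30 and 8.52 in MTAP+ cells, against 8.64, 8.91 and 8.82 in MTAP- cells. Its probe set 223690_at had 7.84, 8.17 and 7.78 in MTAP+ inhibitor cells and 8.09, 8.29 and 8.12 in MTAP+ cells, against 8.09, 8.24 and 8.34 in MTAP- cells. The arrays of the groups lay among each other on both probe sets. LTBP2 differed by -0.28 ± 0.13 and -0.06 ± 0.13 between MTAP+ and MTAP- cells (adjusted p = 0.173 and 0.797), and its other changes had adjusted p values of 0.116 to 0.517. One LTBP2 change passed under 1 alternative: 223690_at between MTAP+ inhibitor and MTAP- cells, without the second inhibitor array (-0.41, adjusted p = 0.0475, in a range of 0.0475 to 0.319).

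TGFBR2, the receptor that binds the ligand (chromosome 3, 30606356 to 30694142, 208944_at), separated MTAP+ from MTAP- cells with an SD of 0.04 in each group. It had 11.83, 11.90 and 11.84 in MTAP+ inhibitor cells and 11.81, 11.80 and 11.87 in MTAP+ cells, against 10.46, 10.46 and 10.38 in MTAP- cells. The inhibitor and MTAP+ arrays lay among each other, and all lay more than 1 log2 unit above the MTAP- arrays. TGFBR2 rose 2.63-fold in MTAP+ cells over MTAP- cells (1.39 ± 0.09, adjusted p = 4.17e-05) and 2.68-fold in MTAP+ inhibitor cells over MTAP- cells (1.42 ± 0.09, adjusted p = 2.29e-05). Both passed in all 18 alternatives, with changes of 1.32 to 1.41 and 1.36 to 1.44, and the third MTAP- array lay only 0.08 below its mates. The inhibitor and MTAP+ arrays differed by 0.03 ± 0.09 (adjusted p = 0.866).

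TGFBR1, the receptor kinase that phosphorylates SMAD2 and SMAD3 (chromosome 9, 99103647 to 99154192, 224793_s_at), passed in no comparison and no alternative. It had 8.92, 8.77 and 9.02 in MTAP+ inhibitor cells and 8.98, 9.50 and 9.24 in MTAP+ cells, against 9.13, 9.23 and 9.18 in MTAP- cells. Its inhibitor arrays lay below all MTAP- arrays, and the MTAP+ arrays spread around them. The differences were 0.06 ± 0.14 for MTAP+ against MTAP- cells (adjusted p = 0.812), -0.34 ± 0.14 for MTAP+ inhibitor against MTAP+ cells (0.151) and -0.28 ± 0.14 for MTAP+ inhibitor against MTAP- cells (0.154).

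**Figure D3:**
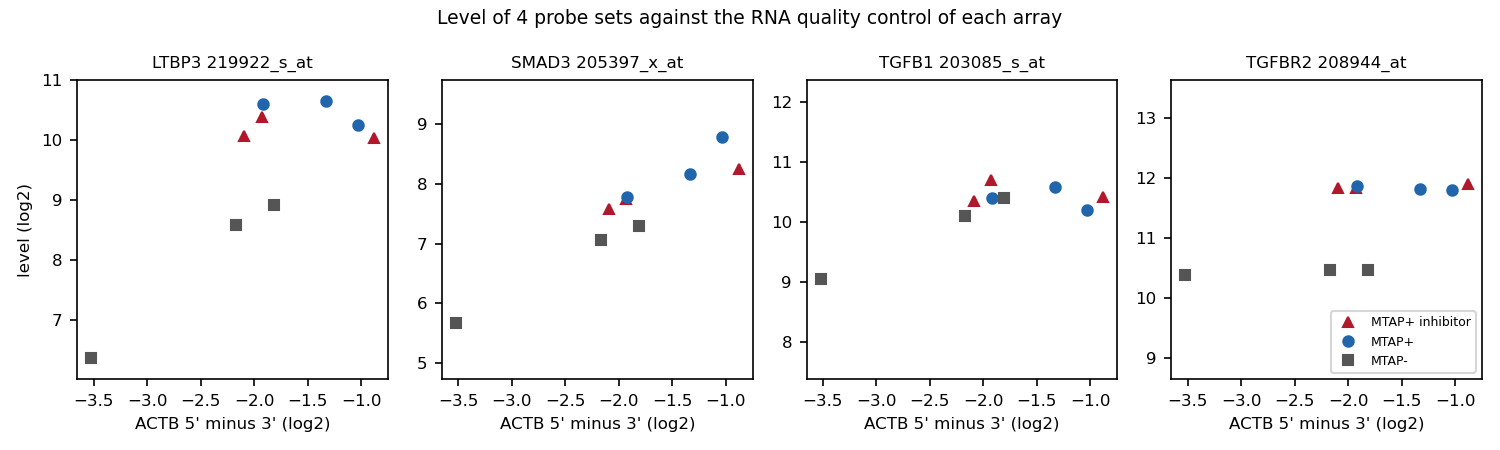
Log2 level of the 3 probe sets that lay farthest down on the third MTAP- array, and of TGFBR2 (y axes, same span in log2 units in each panel), against the ACTB control of the same array, its 5′ level less its 3′ level (x axis, log2), 1 point an array in MTAP+ inhibitor (red triangles), MTAP+ (blue circles) and MTAP- (grey squares). The third MTAP- array, at -3.52, is the lowest point for LTBP3 (6.35), TGFB1 (9.05) and SMAD3 205397_x_at (5.68), whereas its TGFBR2 value of 10.38 is within 0.08 of the mean of its mates.

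SMAD3, the transducer of TGF-beta and activin signals (chromosome 15, 67065602 to 67195169), rose on all 3 of its probe sets in MTAP+ cells over MTAP- cells, and the probe sets differed in their response to the inhibitor. On 218284_at it had 10.74, 10.61 and 10.57 in MTAP+ inhibitor cells and 10.60, 10.41 and 10.77 in MTAP+ cells, against 10.04, 9.81 and 9.99 in MTAP- cells. All arrays with the enzyme lay above those without. SMAD3 218284_at rose 1.57-fold in MTAP+ cells over MTAP- cells (0.65 ± 0.12, adjusted p = 0.00766) and 1.62-fold in MTAP+ inhibitor cells over MTAP- cells (0.69 ± 0.12, adjusted p = 0.0025), in all 18 alternatives. Between MTAP+ inhibitor and MTAP+ cells it differed by 0.05 ± 0.12 (adjusted p = 0.848).

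On 205398_s_at SMAD3 had 8.77, 8.64 and 8.58 in MTAP+ inhibitor cells and 9.43, 9.20 and 9.16 in MTAP+ cells, against 8.48, 8.57 and 8.22 in MTAP- cells. Here the MTAP+ arrays stood alone above both other groups. It rose 1.79-fold in MTAP+ cells over MTAP- cells (0.84 ± 0.13, adjusted p = 0.00307) and fell by 0.60 on the log2 scale in MTAP+ inhibitor cells, against MTAP+ cells (SE 0.13, adjusted p = 0.0184). The fall did not pass without the second inhibitor array (0.0601), the third inhibitor array (0.0871) or the first MTAP+ array (0.0614), the adjusted p ranging from 0.00991 to 0.0871. MTAP+ inhibitor and MTAP- cells differed by 0.24 ± 0.13 on this probe set (adjusted p = 0.182).

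On 205397_x_at SMAD3 had 7.75, 8.25 and 7.58 in MTAP+ inhibitor cells and 8.16, 8.79 and 7.78 in MTAP+ cells, against 7.30, 7.06 and 5.68 in MTAP- cells. The MTAP- arrays lay below all others, the third by far. It rose 2.96-fold in MTAP+ cells over MTAP- cells (1.56 ± 0.41, adjusted p = 0.033), but in 8 of 17 alternatives this did not pass. Among these it was 1.06 without the third MTAP- array (adjusted p = 0.0609), 1.76 without the second MTAP- array (0.0553), 1.61 and 1.29 without the first and the second MTAP+ array (0.0691 and 0.0765), 1.57 without the first inhibitor array (0.0512) and 0.65 with the ACTB covariate (0.0952, the highest in a range from 0.00579). The SMAD3 205397_x_at difference was 1.18 ± 0.41 between MTAP+ inhibitor and MTAP- cells (adjusted p = 0.0542, range 0.00849 to 0.156, passing in 5 alternatives), and -0.39 ± 0.41 between MTAP+ inhibitor and MTAP+ cells (adjusted p = 0.596).

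SMAD7, the inhibitory SMAD (chromosome 18, 48919853 to 48950965, 204790_at), was near the lower limit of the table, which it reached on 3 arrays only through the MTAP+ group. It had 6.50, 6.51 and 6.49 in MTAP+ inhibitor cells and 7.12, 6.85 and 6.69 in MTAP+ cells, against 6.88, 7.18 and 6.58 in MTAP- cells. All 3 inhibitor arrays and the third MTAP- array lay below 6.64, and the inhibitor arrays lay below every other array. SMAD7 was in the table only through 1 group, so it is in the counts but its own differences are described with no test. It differed by 0.01 ± 0.16 between MTAP+ and MTAP- cells, and by -0.38 ± 0.16 between MTAP+ inhibitor cells and each of the other groups. Against MTAP- cells the difference was -0.53 without the third MTAP- array and -0.53 after another quantile normalisation.

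Other genes of the pathway were taken from a list of 93, of which 57 had values, each read on its probe set with the highest mean. In MTAP+ cells over MTAP- cells 16 of the 57 rose and 2 fell (31.6%), against 15.1% of all genes called, 9.84% higher and 5.31% lower, with a median change of 0.16 against 0.02. With MTAP+ inhibitor set against MTAP+ cells 6 rose and 2 fell (14.0%), against 10.6% of all genes, 4.63% higher and 5.95% lower. With MTAP+ inhibitor set against MTAP- cells 21 rose and 7 fell (49.1%), against 32.2% of all genes, 17.3% higher and 14.9% lower. Without the third MTAP- array 14 genes of the list were called in the first comparison, against 8.61% of all genes, and 21 in the last, against 25.1%. With the ACTB covariate these counts were 6, against 5.31% of all genes, and 18, against 23.3%. With the replicate number as a block 19 rose and 3 fell in MTAP+ cells over MTAP- cells, against 21.6% of all genes called, and 6 rose and 4 fell in MTAP+ inhibitor cells over MTAP+ cells, against 16%. Of the 57 genes, ITGB8 and BMP6 reached 6.64 on 3 arrays only through the MTAP+ inhibitor group and SMAD6 only through the MTAP+ group. ITGB8 is counted as a rise in both comparisons with MTAP- cells. SMAD6 is counted as a rise in MTAP+ over MTAP- cells and as a fall in MTAP+ inhibitor against MTAP+ cells. ITGB8, BMP6 and SMAD6 were in the table because of the group where they were high, so they are in the counts but their own differences are described with no test. BMP6, a bone morphogenetic protein, was singled out for this after its values were seen.

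In the group for activation of latent ligands, 4 of 8 genes with values rose and 0 fell in MTAP+ cells over MTAP- cells, against 15.1% of all genes called. This group also holds FURIN and TGM2, which act on the latent complex in other ways than freeing the ligand. The rises counted were ITGB5, THBS1, FURIN and ITGB8, of which ITGB8 has no test of its own. With the ACTB covariate 1 of the 8, ITGB5, still passed, against 5.31% of all genes. ITGB5, an integrin beta subunit, rose by 0.92 ± 0.19 (adjusted p = 0.0126) and THBS1, the activator thrombospondin 1, by 0.88 ± 0.19 (adjusted p = 0.0136), THBS1 not passing under the ACTB covariate (adjusted p = 0.053, range 0.00284 to 0.053). FURIN, the protease that cleaves the propeptide, rose by 0.55 ± 0.14 (adjusted p = 0.0298), and did not pass without the third MTAP- array (0.41, adjusted p = 0.0814, range 0.0142 to 0.22), the second MTAP- array or the first or the third MTAP+ array. FURIN had its highest adjusted p with the ACTB covariate, where its difference was 0.31. In MTAP+ inhibitor cells over MTAP- cells, ITGB5 and THBS1 rose by 0.92 ± 0.19 each (adjusted p = 0.00595 and 0.00537), in all 18 alternatives. FURIN differed there by 0.33 ± 0.14 (adjusted p = 0.103). ITGB8, the beta subunit of another TGF-beta activating integrin, had 6.83, 7.44 and 7.19 in MTAP+ inhibitor cells and 5.09, 6.29 and 7.83 in MTAP+ cells, against 4.06, 4.30 and 4.13 in MTAP- cells. Its MTAP+ arrays spread over more than 2 log2 units. The means of MTAP+ and MTAP- cells were both below 6.64, so no fold is given between them, and the level in MTAP+ inhibitor cells was at least 1.42-fold that in MTAP- cells. TGM2, the transglutaminase that crosslinks LTBP to the matrix, rose by 0.50 ± 0.10 in MTAP+ inhibitor cells over MTAP+ cells (adjusted p = 0.0143), a call that was lost when any 1 of the inhibitor arrays was left out (highest adjusted p 0.0554). ITGB1, the common beta subunit, passed in no comparison and averaged 12.93, 12.84 and 12.75 in MTAP+ inhibitor, MTAP+ and MTAP- cells.

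Of 3 other ligands with values, GDF15, a stress-induced member of the superfamily, rose in MTAP+ inhibitor cells, with 12.84, 12.88 and 12.90 there and 12.25, 12.03 and 12.37 in MTAP+ cells, against 12.24, 11.93 and 11.79 in MTAP- cells. Its inhibitor arrays lay above all others. GDF15 rose by 0.66 ± 0.14 over MTAP+ cells (adjusted p = 0.0178) and by 0.88 ± 0.14 over MTAP- cells (adjusted p = 0.00147), and the first call was lost when any 1 of the inhibitor arrays was left out (highest adjusted p 0.0795). GDF11 passed in no comparison. Of 3 other genes of latency and matrix storage, 0 passed between MTAP+ and MTAP- cells. In MTAP+ inhibitor cells, against MTAP- cells, LTBP4, the remaining latent TGF-beta binding protein, rose by 0.42 ± 0.13 (adjusted p = 0.0397, range 0.0213 to 0.13) and FBN1, the microfibril protein fibrillin 1, fell by 0.48 (SE 0.14, adjusted p = 0.026, range 0.00698 to 0.0954). Neither LTBP4 nor FBN1 passed with the ACTB covariate, and leaving out the second or the third inhibitor array or the second MTAP- array ended both calls. LTBP4 also did not pass without the first inhibitor or the third MTAP- array (0.11 for the last), and FBN1 did not without the first MTAP- array. FBN2 passed in no comparison.

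Of 7 other receptors with values 1 rose and 0 fell in MTAP+ cells over MTAP- cells, against 15.1% of all genes called. ACVR1, a type I receptor of bone morphogenetic proteins and activins, rose by 0.67 ± 0.12 in MTAP+ cells over MTAP- cells (adjusted p = 0.00684) and by 0.63 ± 0.12 in MTAP+ inhibitor cells over MTAP- cells (adjusted p = 0.00391), in all 18 alternatives. ACVR2B, an activin receptor, had 8.55, 8.58 and 8.74 in MTAP+ inhibitor cells and 8.02, 7.95 and 8.22 in MTAP+ cells, against 8.19, 8.37 and 8.30 in MTAP- cells. It rose by 0.56 ± 0.11 in MTAP+ inhibitor cells over MTAP+ cells (adjusted p = 0.0147), and without the third inhibitor array this did not pass (adjusted p = 0.077). ACVR2B also rose over MTAP- cells, by 0.34 ± 0.11 (adjusted p = 0.0441, range 0.0154 to 0.152), which did not pass in 10 alternatives, among them those without any 1 of the inhibitor or MTAP- arrays, without the first MTAP+ array or with the ACTB covariate (0.0539). ENG, the coreceptor endoglin, rose by 0.39 ± 0.11 in MTAP+ inhibitor cells over MTAP- cells (adjusted p = 0.0249, range 0.0109 to 0.0881), and did not pass without any 1 of the inhibitor arrays, without the second or the third MTAP- array, or with the ACTB covariate (0.0839). ACVR1B, an activin type I receptor, passed in no comparison.

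SMAD2 and SMAD4, the partners of SMAD3, rose in MTAP+ cells over MTAP- cells, 2 of 5 other SMADs and anchors with values, against 15.1% of all genes called. SMAD2 had 9.61, 9.60 and 9.57 in MTAP+ inhibitor cells and 9.47, 9.38 and 9.67 in MTAP+ cells, against 8.96, 8.82 and 8.98 in MTAP- cells. All arrays with the enzyme lay above those without. SMAD2 rose by 0.59 ± 0.11 in MTAP+ cells over MTAP- cells (adjusted p = 0.00684) and by 0.68 ± 0.11 in MTAP+ inhibitor cells over MTAP- cells (adjusted p = 0.00154), in all 18 alternatives. SMAD4 rose by 0.73 ± 0.15 and 0.59 ± 0.15 in the same comparisons (adjusted p = 0.0116 and 0.0149), and lost both calls under the ACTB covariate (adjusted p = 0.111 and 0.0758, the highest of their ranges). The second SMAD4 call was lost also without the third MTAP- array (adjusted p = 0.0513), the first MTAP- array or the second inhibitor array. SMAD5, which transmits bone morphogenetic protein signals, passed in no comparison.

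**Figure D4:**
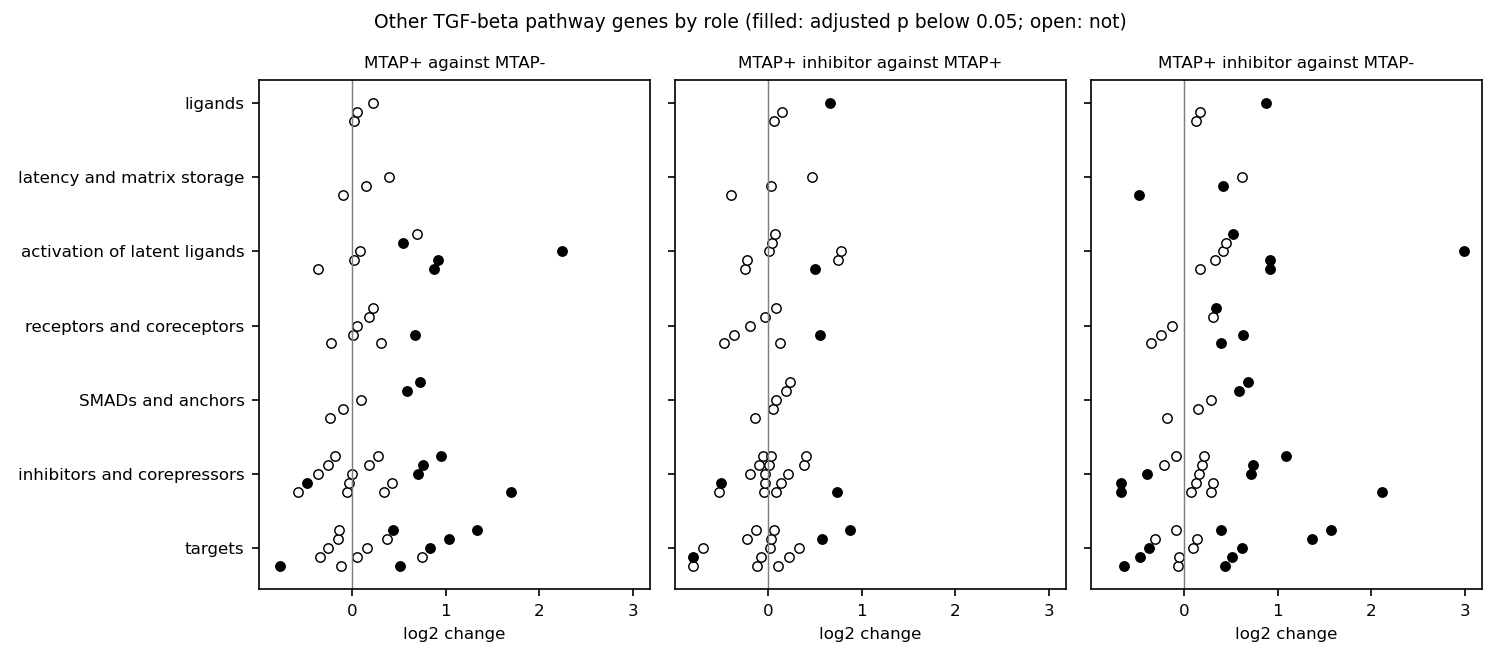
Log2 change (x axis) of the 57 other pathway genes with values, 1 point a gene, by role (rows, in which height only separates points) in the 3 comparisons; filled points passed an adjusted p of 0.05 in limma and open points did not. In the left panel 16 filled points lie right of 0 and 2 left, in the middle panel 6 and 2, and in the right panel 21 and 7; these points include ITGB8 and SMAD6, whose own differences are described with no test.

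Among 16 inhibitors and corepressors with values 4 rose and 1 fell in MTAP+ cells over MTAP- cells, against 15.1% of all genes called, and with the ACTB covariate 1 rose and 0 fell, against 5.31%. The 4 rises include SMAD6, which has no test of its own. PMEPA1, a TGF-beta target that keeps SMAD2 and SMAD3 from the receptor, had the largest change in both comparisons with MTAP- cells. PMEPA1 had 9.43, 9.43 and 9.09 in MTAP+ inhibitor cells and 8.97, 8.63 and 9.12 in MTAP+ cells, against 7.09, 7.18 and 7.34 in MTAP- cells. Its arrays with the enzyme lay far above those without. PMEPA1 rose 3.25-fold in MTAP+ cells over MTAP- cells (1.70 ± 0.15, adjusted p = 0.000282) and 4.33-fold in MTAP+ inhibitor cells over MTAP- cells (2.11 ± 0.15, adjusted p = 4.39e-05), in all 18 alternatives. NOG, the bone morphogenetic protein antagonist noggin, rose by 0.95 ± 0.18 (adjusted p = 0.00824) and TGIF1, a SMAD corepressor, by 0.76 ± 0.15 (adjusted p = 0.0107) in MTAP+ cells over MTAP- cells, and neither passed under the ACTB covariate (adjusted p = 0.0627 and 0.0701, the highest of their ranges). NOG and TGIF1 also rose in MTAP+ inhibitor cells over MTAP- cells, by 1.09 ± 0.18 and 0.72 ± 0.15, in all 18 alternatives.

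SMAD6, an inhibitory SMAD, had 6.80, 6.6 and 6.32 in MTAP+ inhibitor cells and 7.17, 6.92 and 7.14 in MTAP+ cells, against 6.42, 6.44 and 6.23 in MTAP- cells. Its MTAP+ arrays lay above all others, and its level in MTAP+ cells was at least 1.35-fold that in MTAP- cells. FST, the activin-binding protein follistatin, had 10.64, 10.38 and 10.76 in MTAP+ inhibitor cells and 9.85, 9.81 and 9.91 in MTAP+ cells, against 9.97, 9.62 and 9.99 in MTAP- cells. FST was higher on all inhibitor arrays than on any other, and it rose by 0.74 ± 0.14 over each of the other groups (adjusted p = 0.0117 over MTAP+ and 0.00359 over MTAP- cells), the first not passing without the third inhibitor array (adjusted p = 0.0614). BAMBI, a pseudoreceptor that blocks TGF-beta receptors and was named after its values were seen as the only inhibitor that fell in MTAP+ cells, against MTAP- cells, fell by 0.48 (SE 0.12, adjusted p = 0.0304) and did not pass without the third MTAP- array (adjusted p = 0.0955, range 0.0161 to 0.224), the second MTAP- array, the second or the third MTAP+ array or the third inhibitor array. With the ACTB covariate, where its adjusted p was highest, the BAMBI difference was -0.35. BAMBI also fell in MTAP+ inhibitor cells, against MTAP- cells, by 0.67 (SE 0.12, adjusted p = 0.00345), and this passed in all 16 alternatives that held it. FKBP1A, which holds type I receptors inactive, passed in no comparison.

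Of 15 targets with values, 5 rose and 1 fell in MTAP+ cells over MTAP- cells, against 15.1% of all genes called. With the ACTB covariate 1 rose, FN1, and 1 fell, CCN2, against 5.31% of all genes. The rises counted include KLF10, which passed neither under that covariate nor in 12 other alternatives of 18 and was singled out after its values were seen. FN1, the matrix protein fibronectin, had 12.50, 12.38 and 12.26 in MTAP+ inhibitor cells and 12.14, 11.88 and 12.44 in MTAP+ cells, against 10.61, 10.94 and 10.90 in MTAP- cells. It rose 2.53-fold in MTAP+ cells (1.34 ± 0.16, adjusted p = 0.000853) and 2.96-fold in MTAP+ inhibitor cells (1.57 ± 0.16, adjusted p = 0.00018), both over MTAP- cells and in all 18 alternatives. The transcriptional repressor BHLHE40 rose over MTAP- cells by 1.04 ± 0.22 in MTAP+ cells (adjusted p = 0.0131) and by 1.37 ± 0.22 in MTAP+ inhibitor cells (adjusted p = 0.00166), the first not passing under that covariate (adjusted p = 0.12, the highest of its range). ID1, an inhibitor of basic helix-loop-helix factors and a target of bone morphogenetic proteins, rose by 0.83 ± 0.20 in MTAP+ cells over MTAP- cells (adjusted p = 0.0227) and did not pass without the third MTAP- array (0.64, adjusted p = 0.064, range 0.00574 to 0.183), the second MTAP- array or the first MTAP+ array. ID1 did not pass with array weights either, and its difference was 0.56 with the ACTB covariate, where its adjusted p was highest. It averaged 9.88 in MTAP+ inhibitor cells, 10.57 in MTAP+ cells and 9.74 in MTAP- cells. Between MTAP+ inhibitor and MTAP+ cells ID1 differed by -0.69 (SE 0.20, adjusted p = 0.0546), just short of the threshold.

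CCN2, a matrix-associated growth regulator also known as a target of YAP, moved the other way. CCN2 had 11.17, 11.17 and 11.10 in MTAP+ inhibitor cells and 10.17, 10.21 and 10.42 in MTAP+ cells, against 11.00, 11.11 and 11.02 in MTAP- cells. The MTAP+ arrays lay below both other groups. CCN2 fell by 0.77 on the log2 scale in MTAP+ cells, against MTAP- cells (SE 0.10, adjusted p = 0.00147), and rose by 0.88 ± 0.10 in MTAP+ inhibitor cells over MTAP+ cells (adjusted p = 0.00224), in all 18 alternatives. ID3, a relative of ID1, had 8.77, 8.63 and 8.65 in MTAP+ inhibitor cells and 9.63, 9.35 and 9.46 in MTAP+ cells, against 9.56, 9.41 and 8.99 in MTAP- cells. Its inhibitor arrays were the lowest, with a fall of 0.80 (SE 0.15, adjusted p = 0.012) against MTAP+ cells, which did not pass without the third inhibitor array (adjusted p = 0.0592), and a fall of 0.64 (SE 0.15, adjusted p = 0.011) against MTAP- cells, which passed in all 18 alternatives. TGFBI, a matrix protein induced by TGF-beta, rose by 0.58 ± 0.12 in MTAP+ inhibitor cells over MTAP+ cells (adjusted p = 0.0192), and did not pass without the first or the second inhibitor array (highest adjusted p 0.0701). IL11, a cytokine target of TGF-beta, passed in no comparison.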

How the data were processed

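RNA of 9 HT1080 cultures, 3 a group, was measured on 1-colour Affymetrix arrays after extraction with an RNeasy kit and labelling of biotin cRNA, per the labels' protocols. The deposited values are log2 levels, and the submitters' processing notes name RMA as the tool that produced them, with no version or settings. RMA subtracts background and normalises quantiles, which evens out array-wide differences. The table lists 54675 probe sets, of which 37201 had no values in it and 17474 did, 8 of them controls. All 17466 others were tested, without another filter or scaling. The platform annotation gave 1 symbol to 15485 of these, several to 841 and none to 1140, and 12 of the 27 probe sets annotated to the 10 genes had no values. No detection calls were used, so the number of arrays and the spread among them limit the precision.

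The 10 genes, the pathway list and the tests were chosen with earlier results of these data known. The 3 group levels were fitted in limma 3.58.1 (R 4.3.3, lmFit and eBayes) on all 9 arrays, and p values were adjusted by Benjamini-Hochberg within each comparison. They set each difference between group means against the spread between these arrays. Changes are first group minus second, on the log2 scale. The fit was checked on simulated data. Pathway genes were named by role: up to 4 called genes with the largest change in MTAP+ against MTAP- cells, up to 3 in each other comparison, and the uncalled gene with the highest mean. The 18 alternatives were 1 probe set a gene above the 40th percentile of all values (7.96) on 3 arrays, that filter alone, median centring, another quantile normalisation, a replicate block, only the groups compared, array weights, the ACTB covariate, a variance trend, and leaving out each of the 9 arrays.

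Same-numbered arrays deviated together from their group means in MTAP+ and MTAP- cells (r = 0.284, 0.225 and 0.248 over probe sets) and in MTAP+ inhibitor and MTAP+ cells (r = 0.702, 0.594 and 0.321), so the numbers were taken to pair these arrays on the evidence of the data. They did not in MTAP+ inhibitor and MTAP- cells (r = 0.2, 0.008 and -0.006). The stated standard errors and adjusted p values come from the fit without a block, so they do not use this pairing. A pathway gene said not to pass may therefore pass with the block in the paired comparisons. The block is given only as an alternative, and with it 3779 probe sets were called for MTAP+ against MTAP- cells, in place of 2586.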

Additional observations from a re-analysis of the deposited data

How the results depend on the processing

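No result among the named genes reversed under any of the 18 alternatives where it or the alternative passed. For MTAP+ against MTAP- cells, 1337 genes were called when 1 probe set a gene above the 40th percentile was tested, 1385 probe sets when only these groups were fitted and 851 with the ACTB covariate, which also left 6 pathway genes. For MTAP+ inhibitor against MTAP+ cells the gene-level test called 1042 genes and 0 of 7 tested genes of the set, since it leaves out the SMAD3 probe set that fell. For MTAP+ inhibitor against MTAP- cells it called 2614 genes, and the ACTB covariate left 18 pathway genes. Centring gave 2545 higher and 2886 lower probe sets there, in place of 3031 and 2330. The gene-level counts test fewer features; the cause of the other changes was not tested.

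With the replicate number as a block, 2726 probe sets were called between MTAP+ inhibitor and MTAP+ cells, and no call among the 12 tested probe sets changed in the paired comparisons. The pathway list then had 22 calls for MTAP+ against MTAP- cells and 10 for MTAP+ inhibitor against MTAP+ cells, in place of 18 and 8. In the latter comparison 3 of the 15 targets fell with the block, in place of 1, against 16% of all genes called. In MTAP+ inhibitor against MTAP- cells, where the numbers did not pair the arrays, the block gave 6500 calls in place of 5361, and SMAD3 205397_x_at then passed (1.18, adjusted p = 0.00849).

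Leaving out 1 array at a time gave 1458 (without MTAP- replicate 3) to 2809 calls for MTAP+ against MTAP- cells, 452 (without inhibitor replicate 3) to 1836 for MTAP+ inhibitor against MTAP+ cells and 3562 (without inhibitor replicate 3) to 6032 for MTAP+ inhibitor against MTAP- cells. The tested probe sets of the set gave 5 to 6, 0 to 2 and 5 to 7 calls, and the pathway list 12 to 18, 2 to 10 and 18 to 29. All alternatives left 6 of 18, 1 of 8 and 16 of 28 called pathway genes passing. Counted over all changes of the 15 probe sets and all alternatives, a call was lost 12 times and gained 12 times. SMAD3 205397_x_at lost its call in 8 alternatives and TGFB2 in 1, both for MTAP+ against MTAP- cells. SMAD3 205398_s_at lost its fall between MTAP+ inhibitor and MTAP+ cells in 3. LTBP3 and INHBA, which had no test, were set against the residual SD of their probe set, and LTBP3 219922_s_at passed it with the ACTB covariate (1.73 in place of 2.56, SD 0.82). Without MTAP- replicate 3 its differences were 1.76 in place of 2.56 and 1.42 in place of 2.22, just within that SD. That SD includes the spread that this array brings. The SD of LTBP3 219922_s_at was 1.39 in MTAP- cells, against 0.22 in MTAP+ and 0.18 in MTAP+ inhibitor cells. A shift within it therefore cannot show that the differences did not depend on the array.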
